A study of Gallus gallus with 10 samples.

Results

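Ectopic optic tecta (iTeOs) induced by neuroepithelial cells (NECs) of a human embryonic stem cell line were compared with those induced by NECs of a human induced pluripotent stem cell line, using 4 of the 10 RNA-seq libraries of the study. The members were chosen by their labels, 2 libraries named iTeO (ES) against 2 named iTeO (iPS), and only chicken genes were compared. All tissue is labelled wild type and came from chicken embryos. The hosts were Hy-Line W36 embryos in which, at stage HH11, a piece of the anterior diencephalon was replaced by NEC epithelium made with the 3d protocol, from the hESC line RH6 for iTeO (ES) and from the hiPSC line RiPSC4 for iTeO (iPS). The other libraries were 3 of natural optic tectum (TeO) and 3 of natural cerebral cortex (NCC). The methods give a single default day of harvest for grafted embryos, late in incubation, and the sources used here do not state it again for these iTeO libraries. The age of the TeO and NCC embryos, and whether they carried a graft, is not given in the sources used here. Each cell source is a single line, so the kind of stem cell and the line cannot be told apart, and the sources do not say whether a library holds one embryo or several. The p-values therefore measure the spread between these libraries only.

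The optic tectum is the roof of the midbrain and the main visual centre of birds, built of stacked layers of neurons. During normal development it is induced by the isthmic organizer, a signalling centre at the border of midbrain and hindbrain that secretes FGF8. Embryonic stem cells are taken from the early embryo, whereas induced pluripotent stem cells are adult cells set back to a similar state, and the comparison asks whether host tissue induced by one differs from host tissue induced by the other. In birds, females carry a Z and a W chromosome and males a pair of Z chromosomes. Genes found only on the W are silent in males, and many genes of the Z are expressed more strongly in males because their dosage is only partly balanced.

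The deposited counts are listed under Ensembl identifiers, and 0 of the 24881 chicken identifiers could be paired with a gene name in the annotation used here. Tectal markers and markers of other cell types could therefore not be checked, and fewer cells of a type cannot be told apart from less RNA per cell. Total counts were 10566585 and 9793807 for the iTeO (ES) libraries, 7832388 and 8486411 for the iTeO (iPS) libraries, and ran from 10906465 to 11631102 over TeO and NCC. The share of counts on human genes was 0.371% and 0.299% in the first replicates of iTeO (ES) and iTeO (iPS), and 0.129% and 0.124% in the second replicates, against 0.123% to 0.137% in TeO and NCC. It thus differed far more between first and second replicates than between the kinds at the same replicate number. At either number iTeO (ES) had the higher share, but both second replicates lay within the range of TeO and NCC. The labels do not say that a number marks a shared embryo or batch. The part of the human share in the results below was not tested.

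Before any difference was read as one of cell source, genes were set apart that also divided the natural tissues. In earlier work on these data, TeO replicates 2 and 3 and NCC replicate 3 had been found to differ from TeO replicate 1 and NCC replicates 1 and 2, across both tissues. Of the 13999 tested chicken genes, 387 (2.76%) differed between these sides at an adjusted p-value under 0.05 (quasi-likelihood fit of edgeR over the 6 natural libraries with tissue as a term). The sides were defined on the same libraries, so this number sorts genes and is no test. The iTeO libraries took no part in that fit. Between iTeO (ES) and iTeO (iPS), 377 of the 387 genes moved the same way as between the sides, iTeO (ES) going with TeO replicates 2 and 3 and NCC replicate 3, and 10 moved the opposite way. Among the other 13612 genes, 52.9% shared the direction. The 377 genes, 2.69% of those tested, are called set apart here. The number of genes that divided the natural tissues was smallest without TeO replicate 1, at 221.

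**Figure D1:**
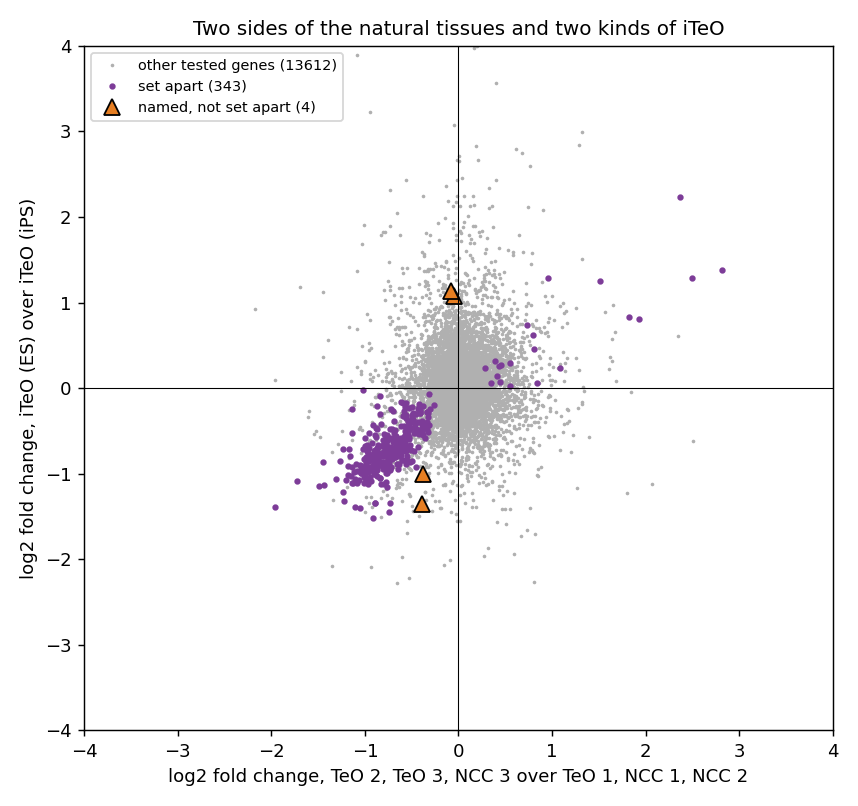
Each point is a tested chicken gene, with its log2 fold change between the sides of the natural tissues on the x axis and between iTeO (ES) and iTeO (iPS) on the y axis. The 343 set-apart genes inside the axes (purple) lie mostly at negative values on both axes, and the 4 named genes that were not set apart (orange) lie near 0 or at small negative values on the x axis, while the 29 all-or-none genes were left out and 5 other set-apart genes and 10 genes not set apart fall outside the axes.

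Most set-apart genes fell into an all-or-none group or a graded group, and the rest, all higher in iTeO (ES), into neither. Of the 55 set-apart genes higher in iTeO (ES), 30 had at most 3 counts in each of TeO replicate 1 and NCC replicates 1 and 2, and 29 of these, the all-or-none group, had at most 1 count in either iTeO (iPS) library. The 25 genes above 3 counts had a median log2 fold change of 0.62 between the kinds and of 0.84 between the natural sides. In iTeO (ES) replicate 1 the levels of the all-or-none group ran from 0.956 to 144 CPM (counts scaled to library size with TMM factors) with a median of 7.21, and in replicate 2 from 1.58 to 141 with a median of 8.95. TeO replicates 2 and 3 and NCC replicate 3 gave medians of 8.53, 8.85 and 7.47 CPM. Being off in both iTeO (iPS) libraries and higher in iTeO (ES) is how these 29 genes were chosen out of the 30. Set against a floor of 3 counts per library, the mean level in iTeO (ES) was at least 3.54-fold higher for the weakest gene and at least 396-fold higher for the strongest.

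ENSGALG00000040086 and ENSGALG00000039023 divided the natural tissues most clearly among the set-apart genes higher in iTeO (ES). ENSGALG00000040086 stood at 204 and 217 CPM with ES-derived and at 0.12 and 0.11 CPM with iPS-derived NECs, 0.37, 279 and 286 in TeO replicates 1 to 3 and 0.276, 0.281 and 315 in NCC replicates 1 to 3. ENSGALG00000039023, an all-or-none gene, had 144 and 141 CPM in iTeO (ES), 0 in both iTeO (iPS) libraries, 0.277, 162 and 164 in TeO replicates 1 to 3 and 0.184, 0.0937 and 147 in NCC replicates 1 to 3. For both genes the 5 libraries on one side lay far above the 5 on the other, whatever the tissue. Their adjusted p-values between the kinds were still 0.637 and 0.665 in the quasi-likelihood test of edgeR over all 10 libraries. The standard errors of the log2 fold changes were 5.6 and 7.3 there, since that fit takes its spread also from TeO and NCC. In the edgeR fit of the 4 iTeO libraries alone the adjusted p-values were 7.76e-07 and 6.13e-06. ENSGALG00000040086 missed the all-or-none group by its 4 counts in TeO replicate 1.

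The graded group held 322 genes that were lower in iTeO (ES), with a median log2 fold change of -0.74 against iTeO (iPS). Between the sides of the natural tissues the median of the same genes was -0.76. Relative to each gene's mean over the 10 libraries, the median log2 level of these genes was -0.37 and -0.32 with ES-derived and 0.35 and 0.42 with iPS-derived NECs. It was 0.36, -0.38 and -0.37 in TeO replicates 1 to 3 and 0.35, 0.33 and -0.37 in NCC replicates 1 to 3. These medians of the iTeO libraries were thus close to those of natural tissue on the same side. A median over 322 genes does not show that each gene had a like level.

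ENSGALG00000014916 stood at 141 and 170 CPM with ES-derived and at 321 and 317 CPM with iPS-derived NECs, with 230, 116 and 118 in TeO replicates 1 to 3 and 242, 253 and 121 in NCC replicates 1 to 3. ENSGALG00000037880 stood at 237 and 207 CPM with ES-derived and at 426 and 446 CPM with iPS-derived NECs, with 359, 174 and 176 in TeO replicates 1 to 3 and 340, 381 and 183 in NCC replicates 1 to 3. In both genes the kinds did not overlap, and neither did the sides within TeO and NCC. Their log2 fold changes between the kinds, -1.04 (standard error 0.46) and -0.97 (standard error 0.46), were close to those between the natural sides, -1.01 and -1.01. Their adjusted p-values between the kinds, 0.565 and 0.592 (quasi-likelihood test of edgeR over all 10 libraries), missed the threshold. That fit takes its spread also from TeO and NCC, which hold libraries of both sides. In a fit of the 4 iTeO libraries alone both adjusted p-values of edgeR were 0.0187. In a fit with the split as a term, the log2 fold change was 0.04 for ENSGALG00000037880 and -0.03 for ENSGALG00000014916. It was 0.83 for ENSGALG00000040086 and 3.94 for ENSGALG00000039023, which had 0 counts in both iTeO (iPS) libraries. These genes were chosen for their difference between the natural sides, which that term takes off.

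The set-apart genes also lay together in the deposited table. Its chicken rows are not sorted by identifier. In 6 adjacent blocks of 250 rows, from row 7251 to row 8750, 321 of 812 tested genes were set apart, and 318 of these were lower in iTeO (ES). Over all 812 genes, 81.0% were lower in iTeO (ES), with a median log2 fold change of -0.42, against -0.43 between the natural sides. Outside these rows 46.2% of genes were lower in iTeO (ES) and the median was 0.02. No other block of at least 20 tested genes had more than 9.15% of its genes set apart. Of the 29 all-or-none genes, 16 lay between rows 17924 and 18064, where 19 genes were tested. The rows were chosen after the values were seen.

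**Figure D2:**
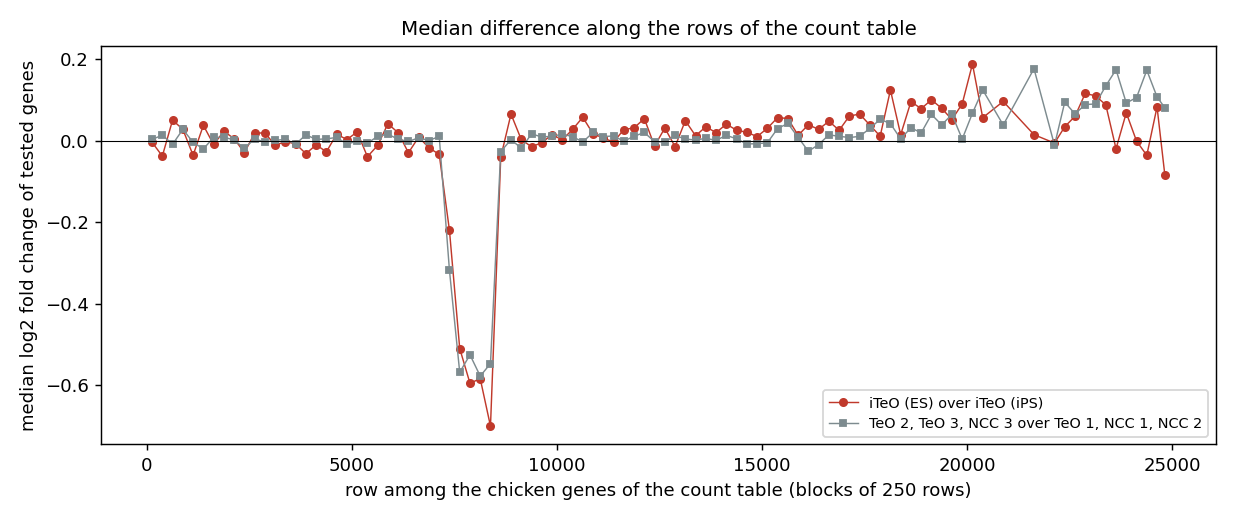
Median log2 fold change of the tested genes in blocks of 250 consecutive chicken rows of the count table, for iTeO (ES) over iTeO (iPS) (red) and for TeO replicates 2 and 3 and NCC replicate 3 over TeO replicate 1 and NCC replicates 1 and 2 (grey). Both lines drop together between rows 7251 and 8750 and stay near 0 over most other rows.

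The labels give no embryo sex and the files give no chromosome for any identifier, so the part of embryo sex in these differences was not tested. Within the iTeO libraries both of one kind lie on one side and both of the other kind on the other. For the set-apart genes the cell source and the split therefore cannot be told apart. Genes that follow the split without reaching the threshold were not set apart. In rows 7251 to 8750, 658 of 812 tested genes were lower in iTeO (ES), and only 318 of these were set apart. The genes not set apart are thus not shown to be free of the split.

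The kinds were tested against each other with the quasi-likelihood test of edgeR, the 10 libraries being fitted together as iTeO (ES), iTeO (iPS), TeO and NCC. A gene counted as called where the adjusted p-value was under 0.05 and the difference over 2-fold. This held for 2 of 13999 genes (0.0143%), which were higher in iTeO (ES) and not set apart. TeO and NCC each hold libraries of both sides, which widens the spread of set-apart genes in this fit. The fit is thus less able to call them, and their absence among the calls says nothing about the size of their differences. Without adjustment, 1285 genes (9.18%) had a p-value under 0.05. Of these, 150 were set apart (39.8% of the 377 set-apart genes), 4 higher and 146 lower in iTeO (ES). The other 1135 (8.33% of the 13622 genes not set apart) were 683 higher and 452 lower in iTeO (ES). Their median absolute log2 fold change was 0.52, and 234 of them exceeded a 2-fold difference.

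ENSGALG00000015286 stood at 77.4 and 86.9 CPM with ES-derived and at 39.4 and 38.6 CPM with iPS-derived NECs. The TeO libraries, with 56.5, 46.3 and 54.7 CPM, lay between the kinds, and so did NCC with 64.2, 63.1 and 66.5. The log2 fold change between the kinds was 1.07 (standard error 0.11, adjusted p = 0.00384, quasi-likelihood test of edgeR). Against TeO it was 0.64 in iTeO (ES) (standard error 0.10, adjusted p = 0.000377) and -0.43 in iTeO (iPS) (standard error 0.10, adjusted p = 0.00803) in the same edgeR fit. The kinds of iTeO thus departed from natural tectum in opposite directions for this gene, each by less than 2-fold. The 2 departures share the TeO libraries.

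ENSGALG00000003932 stood at 21.8 and 21.0 CPM with ES-derived and at 8.85 and 10.5 CPM with iPS-derived NECs, against 20.7, 18.5 and 17.9 in TeO and 15.7, 13.5 and 15.0 in NCC. Here iTeO (iPS) was the lowest group, and iTeO (ES) was next to TeO. The log2 fold change between the kinds was 1.14 (standard error 0.15, adjusted p = 0.0373, quasi-likelihood test of edgeR). Against TeO it was -0.97 in iTeO (iPS) (standard error 0.15, adjusted p = 0.000389) and 0.17 in iTeO (ES) (standard error 0.13, adjusted p = 0.364) in the same edgeR fit. Both called genes had log2 fold changes near 0 between the natural sides, -0.05 for ENSGALG00000015286 and -0.08 for ENSGALG00000003932.

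No gene lower in iTeO (ES) was called in the edgeR fit of all 10 libraries. The 2 of lowest p-value in that direction, among genes not set apart, without overlap between the kinds and with at least 5 CPM in the higher kind, were high in iTeO (iPS) alone. ENSGALG00000015154 stood at 4.26 and 4.1 CPM with ES-derived and at 11.5 and 9.98 CPM with iPS-derived NECs, against 5.45, 3.43 and 4.38 in TeO and 3.04, 3.0 and 2.52 in NCC. ENSGALG00000015603 stood at 9.73 and 10.3 CPM with ES-derived and at 18.3 and 21.8 CPM with iPS-derived NECs, against 11.6, 10.9 and 9.48 in TeO and 11.6, 12.8 and 8.15 in NCC. In both genes each iTeO (iPS) library was above all 8 other libraries. Within natural tissue TeO replicate 1 was the highest of its group and NCC replicate 3 the lowest, which is the order of the sides in the graded group. Their log2 fold changes between the kinds were -1.36 (standard error 0.24, adjusted p = 0.174) and -1.0 (standard error 0.20, adjusted p = 0.247) in edgeR. DESeq2 without shrinkage did call ENSGALG00000015154, at -1.35 (adjusted p = 0.0153). ENSGALG00000015603 fell just short of a 2-fold difference there, at -0.9997 (adjusted p = 0.0185 in DESeq2). After shrinkage with ashr they stood at -0.92 and -0.78 and were not called. Both also moved the same way between the natural sides, by -0.39 and -0.38, at unadjusted p-values of 0.105 and 0.0258 in edgeR.

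**Figure D3:**
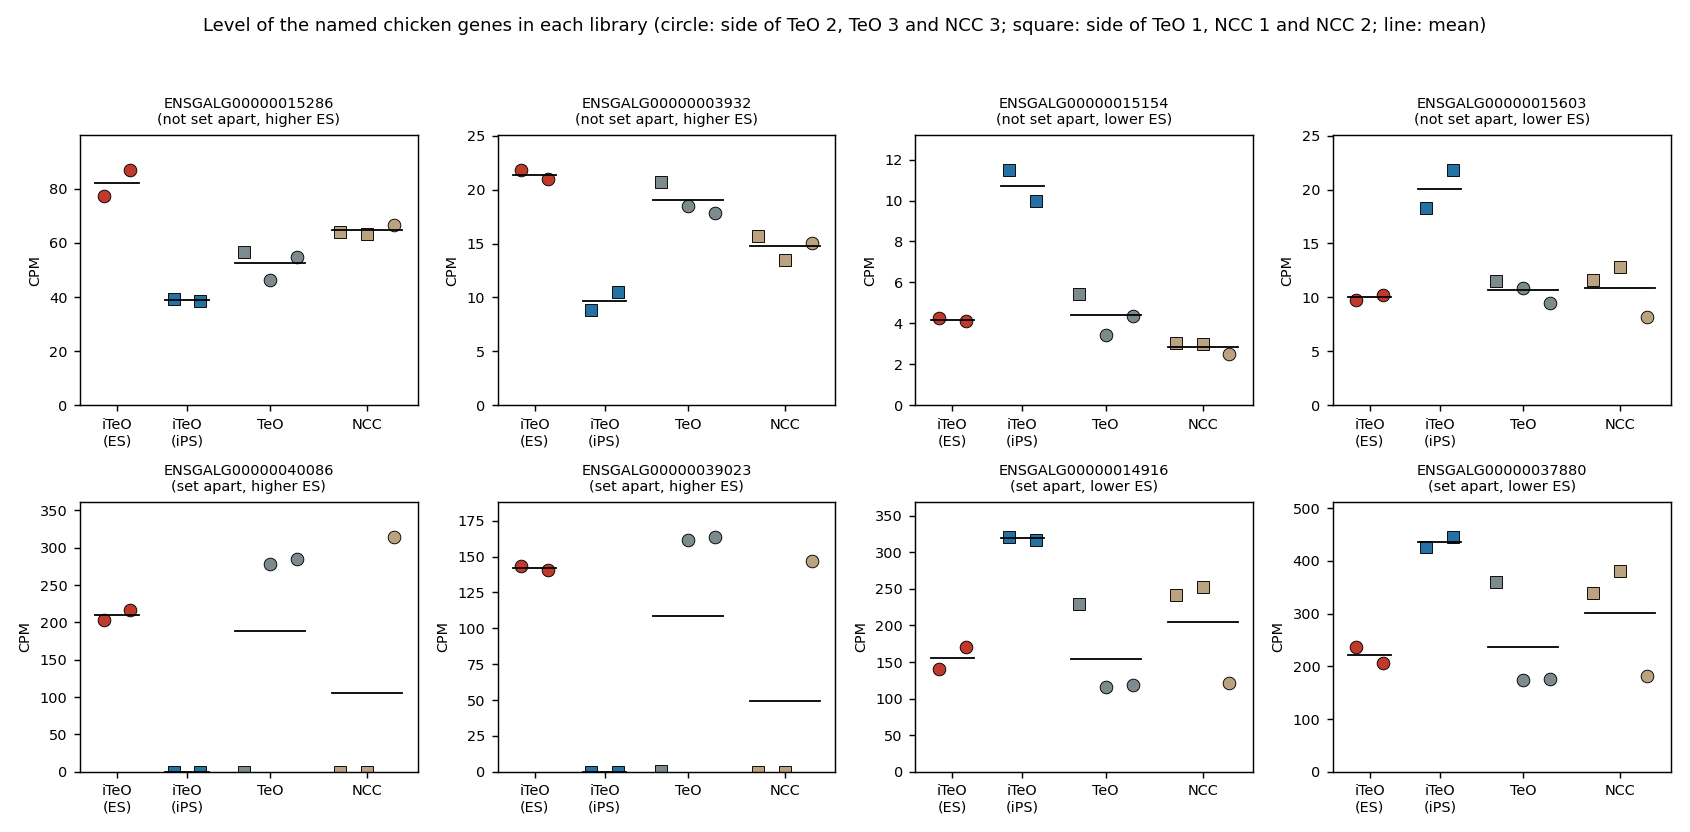
CPM (TMM-scaled) of the 8 named chicken genes in each of the 10 libraries, with circles for iTeO (ES), TeO replicates 2 and 3 and NCC replicate 3, squares for the other libraries, and lines at group means. In the panels of genes not set apart the kinds of iTeO separate by more than the circles and squares of natural tissue do. In those of set-apart genes circles and squares separate in every tissue. The genes were chosen by their difference between the kinds or between the natural sides, so these patterns largely follow from the choice.

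The number of calls depended on the libraries fitted and on the tool. With the 4 iTeO libraries fitted alone, 59 of 13491 genes (0.437%) were called, 39 higher and 20 lower in iTeO (ES). Of these 59, 50 (84.7%) were set apart, where set-apart genes were 2.77% of those tested. Of the 50, 27 were higher in iTeO (ES) with at most 3 counts in iTeO (iPS), and 19 lay in rows 7251 to 8750. With the split as a term in the fit of all 10 libraries, 0 genes were called by edgeR and 656 had an unadjusted p-value under 0.05. The log2 fold changes of the genes called without that term were then 1.12 for ENSGALG00000015286 (adjusted p = 0.0636) and 1.22 for ENSGALG00000003932 (adjusted p = 0.279), no smaller than before. DESeq2 called 40 genes over the 10 libraries, and 13 after shrinkage with ashr. Of the 40, 30 were not set apart, 26 higher and 4 lower in iTeO (ES). Of the 13, 9 were not set apart, 8 higher and 1 lower in iTeO (ES). DESeq2 gave no adjusted p-value for the set-apart genes ENSGALG00000040086 and ENSGALG00000039023, so they could not be called there. Its fit also takes its spread from TeO and NCC, and is less able to call set-apart genes. Both called genes were among the genes called by DESeq2 with and without ashr and by edgeR in the iTeO libraries alone.

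The 9 genes called in the iTeO libraries alone and not set apart held 7 higher and 2 lower in iTeO (ES), with absolute log2 fold changes between 1.07 and 1.82 and means between 10.01 and 98.1 CPM in the higher kind. Set against the range of the 3 TeO libraries, iTeO (ES) was above and iTeO (iPS) below for 2 of them, which are the 2 genes named above. In ENSGALG00000003932 the lower iTeO (ES) library, at 20.97 CPM, was only just above the highest TeO library, at 20.71. The edgeR test of iTeO (ES) against TeO over the 10 libraries gave this gene an adjusted p of 0.364. For 1 gene both kinds were above the TeO range and for 1 both were below it. In the other 5 at least one kind overlapped the TeO range. The gene above it in both kinds, ENSGALG00000016400, was named after its values were seen. Its level was 13.4 and 8.48 CPM with ES-derived and 41.8 and 29.5 CPM with iPS-derived NECs, against at most 2.94 in any TeO and 2.62 in any NCC library. Its adjusted p was 0.0326 in the edgeR fit of the iTeO libraries and 0.281 in that of all 10.

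Leaving out single iTeO libraries moved the number of calls from edgeR further. It was 64 without iTeO (ES) replicate 1 and 96 without iTeO (ES) replicate 2, none of them set apart, and only 3 genes were common to these lists. It was 2 without iTeO (iPS) replicate 1 and 0 without iTeO (iPS) replicate 2, where 857 genes had an unadjusted p-value under 0.05. It was 1 without any one of the TeO libraries or without NCC replicate 3, and 3 without NCC replicate 2. Of the called genes, ENSGALG00000003932 lost its call in 10 and ENSGALG00000015286 in 3 of 19 settings, and their log2 fold changes stayed between 1.003 and 1.27 and between 0.988 and 1.154. An equal number of calls did not always mean the same genes. ENSGALG00000003932 lost its call without iTeO (iPS) replicate 1 and without NCC replicate 1. With a single library left for a kind, that library is assumed to vary like the other groups. These fits also keep TeO and NCC, which hold libraries of both sides, and are less able to call set-apart genes. The lack of set-apart genes among their calls is therefore no result about those genes.

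**Figure D4:**
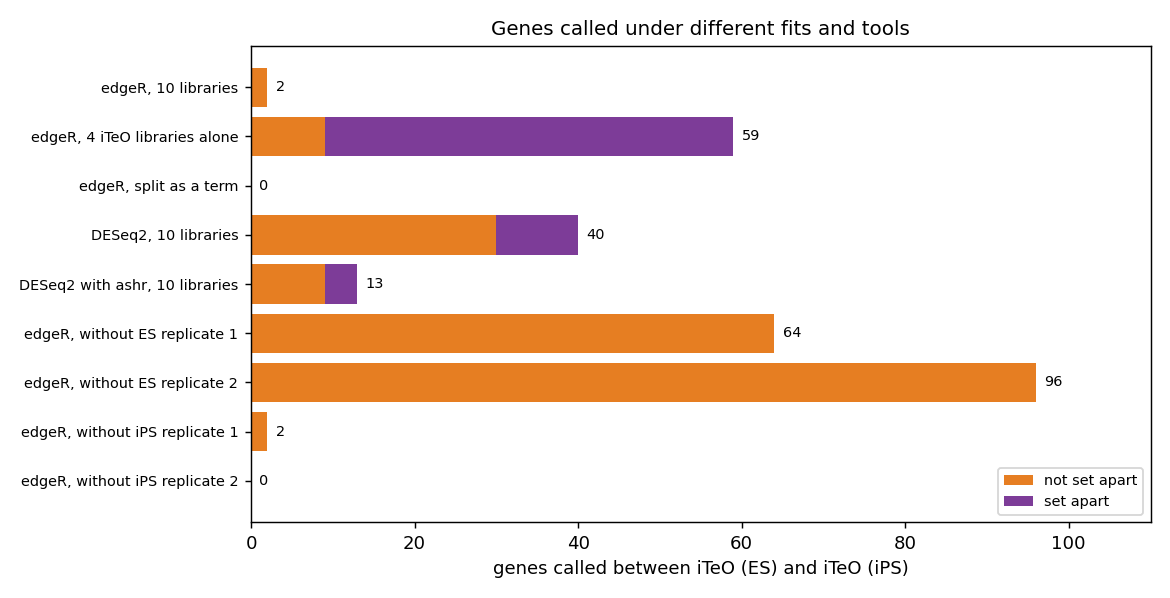
Number of chicken genes called between iTeO (ES) and iTeO (iPS), at an adjusted p-value under 0.05 and over 2-fold, in 9 fits, divided into set-apart genes (purple) and others (orange). Set-apart genes make up 50 of the 59 calls in the 4 iTeO libraries alone. The edgeR and DESeq2 fits that keep TeO and NCC, which hold libraries of both sides, are less able to call set-apart genes. The purple parts of the bars are therefore not comparable between the fits. DESeq2 gave no adjusted p-value for the set-apart genes ENSGALG00000040086 and ENSGALG00000039023, so its bars cannot hold them.

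The spread within each kind gives a scale for the difference between them. Among the 10145 genes with a mean of at least 5 CPM over the 10 libraries that were not set apart, 231 differed more than 2-fold between the 2 iTeO (ES) libraries, 139 higher in replicate 1 and 92 higher in replicate 2. Only 49 did between the 2 iTeO (iPS) libraries. From one kind to the other the number was 159 and 147 for iTeO (ES) replicate 1 against iTeO (iPS) replicates 1 and 2, and 117 and 150 for iTeO (ES) replicate 2. Each of the 4 pairs across the kinds thus differed in fewer genes than the 2 iTeO (ES) libraries did among themselves. Pairs of TeO libraries differed in 22 to 30 genes and pairs of NCC libraries in 40 to 42. Of the 231 genes, iTeO (ES) replicate 1 was the highest of the 4 iTeO libraries in 129 and the lowest in 74. Replicate 2 was the highest in 81 and the lowest in 102, and the iTeO (iPS) mean was nearer to replicate 2 in 142 and to replicate 1 in 89. With the set-apart genes kept, the pairs across the kinds differed in 172 to 229 genes. Pairs of TeO libraries then differed in 22 to 87 genes and pairs of NCC libraries in 44 to 99. The set-apart genes were chosen by differences among the TeO and NCC libraries, so leaving them out lowers these numbers by construction.

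**Figure D5:**
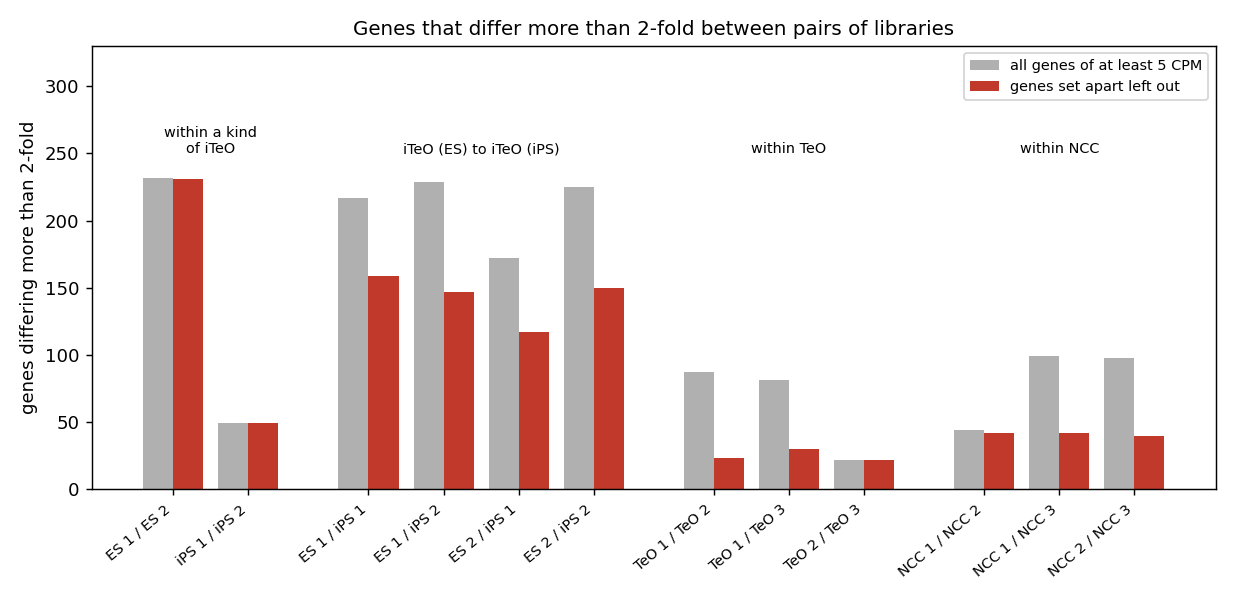
Number of chicken genes (mean of at least 5 CPM) that differ more than 2-fold between pairs of libraries, for all genes (grey) and without the set-apart genes (red). Without them the pairs across the kinds of iTeO stand at 117 to 159, between 49 within iTeO (iPS) and 231 within iTeO (ES).

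Gene by gene, the kinds did not overlap in 4562 genes (32.6%), and in 1429 (10.2%) the gap between them was wider than the spread within either kind. For 2 against 2 libraries that do not differ, order alone leaves a share of 0.333 of genes without overlap. The 32.6% therefore shows no difference between the kinds by itself. The matching share for the wider gap was not computed. Among the set-apart genes 93.1% did not overlap, against 30.9% of the others. Without the set-apart genes, 1148 of 13622 (8.43%) had a gap wider than the spread. The median absolute log2 difference between the kinds' means was then 0.14, against 0.23 between the iTeO (ES) replicates and 0.19 between the iTeO (iPS) replicates. Over variance-stabilized counts of the 19605 genes with any count, the mean distance between libraries of different kinds was 51.1, which was 1.13 times the mean within kinds. Without the set-apart genes the ratio was 1.01, with distances of 42.8 to 47.7 between kinds, 50.0 within iTeO (ES) and 40.3 within iTeO (iPS). These ratios are descriptions, since no exact permutation test of 2 against 2 libraries can give a p under 0.333.

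A p-value above the threshold does not show that the kinds are alike. The intervals of the fold changes say how large a difference remains possible under the spread estimated over all 10 libraries. The iTeO (ES) libraries differed more from each other than TeO or NCC libraries did, so for them this shared spread may be too small. For 10640 of the 13999 genes (76.0%), the 95% interval of the log2 fold change lay within -1 and 1, a difference of at most 2-fold either way. The share rose with expression. It was 0.304% among genes under 1 CPM in iTeO, 35.7% from 1 to 5 CPM, 86.0% from 5 to 20 CPM, 95.1% from 20 to 100 CPM and 96.6% above. The median standard error fell from 0.64 to 0.10 from the lowest to the highest class. For most genes under 5 CPM a difference of more than 2-fold thus lay within the interval. In the fit with the split as a term the share was 67.8%, and in the edgeR fit of the 4 iTeO libraries alone it was 75.1%.

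Set against natural tissue in the same edgeR fit, 1010 genes (7.21%) were called between iTeO (ES) and TeO, 613 higher and 397 lower in iTeO (ES). Between iTeO (iPS) and TeO, 820 genes (5.86%) were called, 448 higher and 372 lower. Against NCC the numbers were 2394 (17.1%) for iTeO (ES) and 2291 (16.4%) for iTeO (iPS). Of these calls, 12, 14, 38 and 27 were set apart, where set-apart genes were 2.69% of those tested. This fit is less able to call set-apart genes, since TeO and NCC each hold libraries of both sides. TeO and NCC also hold the sides in unlike numbers. The counts of set-apart calls are therefore no result about those genes. The comparisons of the kinds share their TeO or NCC libraries, and whether their numbers differ was not tested.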

How the data were processed

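For each of 10 libraries the authors deposited whole-number counts on 24881 chicken and 58302 human genes, without normalization. Per the labels and methods, the authors trimmed reads with Trimmomatic, aligned them with STAR 2.7.1a to a joined human (GRCh38) and chicken (galGal5) genome and counted unique alignments with featureCounts, leaving out reads equally similar to both. Chicken counts were analysed with edgeR 4.0.16 in R 4.3.3 (TMM, filterByExpr by tissue, robust quasi-likelihood fit, Benjamini-Hochberg adjustment), and with DESeq2 1.42.0 and ashr 2.2.63 as alternatives. Standard errors are the log2 fold change over the root of F. Log2 CPM used a prior count of 2. The edgeR test between the kinds, over all 10 and over the 4 iTeO libraries, was tried on simulated data that held no split. The sorting by the split, the intervals, the distances and DESeq2 were not tried in this way. Named genes were the 2 of lowest p in each direction among genes not set apart, without overlap and with at least 5 CPM in the higher kind, and the 2 that divided the natural sides at the lowest p in each direction among those set apart. The members, lists and split were chosen with earlier results of these data known. Gene lists could not be used without gene names.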

Additional observations from a re-analysis of the deposited data

Results flagged for a closer look

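The share of human counts was 0.371% in iTeO (ES) replicate 1 (95% Wilson interval 0.367% to 0.375%) and 0.299% in iTeO (iPS) replicate 1 (0.295% to 0.302%), above the highest share in TeO and NCC, 0.137%. These intervals hold only the error of counting. ENSGALG00000015286 and ENSGALG00000003932 stood out because iTeO (ES) and iTeO (iPS) differed in the edgeR test, by log2 fold changes of 1.07 and 1.14. These are the same 2 calls between the kinds as above.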

How the results depend on the processing

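The number of calls between the kinds was 2, and 2 without set-apart genes, which the fit of 10 libraries is less able to call. It was unchanged with the size factors of DESeq2 and without a filter on low counts. It also stayed the same with a minimum of 10 counts per library and at any fold change. It was 40 (30 without set-apart genes) with DESeq2, 13 (9) with ashr, 59 (9) with the iTeO libraries alone and 0 (0) with the split as a term, where 656 genes had an unadjusted p under 0.05. When single libraries were left out it was between 0 and 96, the unadjusted number between 857 and 2286 (main value 1285), and the number of genes dividing the natural tissues between 221 and 413. A replicate block left 1 call, and so did the block with the numbers of iTeO (iPS) crossed (1 call), a setting chosen after seeing the data because deviations of same-numbered libraries correlated at -0.11. The labels do not say that a number marks a shared embryo or batch.

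The share of genes with the interval within 2-fold was 59.5% without a filter, 87.6% with a minimum of 10 counts per library, 67.8% with the split as a term and between 67.9% and 74.6% with a library left out. Of the 13999 tested genes, 1091 divided the natural tissues at an unadjusted p under 0.05 in edgeR and 3558 by lack of overlap alone. With 3 libraries a tissue, order alone leaves many genes without overlap, and an unadjusted threshold also passes genes that do not differ. Neither number is therefore a count of genes shown to divide the tissues, and the shares without any difference were not computed. After either rule 2 calls remained, in a fit that is less able to call genes dividing the natural tissues. The distance ratio was 1.63 over the 500 genes of highest variance, 1.01 without the genes that divided the natural tissues and 1.25 as 1 minus the correlation. The set-apart gene ENSGALG00000037880 changed sign, from -0.97 to 0.036, with the split as a term. That term takes the difference between the natural sides, -1.01 for this gene, off the difference between the kinds. The cause of the other shifts was not tested. With 2 libraries a kind, intervals were widest for genes under 5 CPM, and the parts of depth and of library number in this were not tested.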
